A study of Mus musculus with 46 samples.

Results

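A group of 10 genes of cytosolic DNA sensing was followed in the RNA of adult mouse hearts: Cgas, Sting1, Tbk1, Ikbke, Irf3, Zbp1, Ifi204, Aim2, Trex1 and Samhd1. They were taken by name from a count table of 55359 genes, and each name matched 1 identifier. All 10 passed the filter on low counts in both library kits. The 46 libraries came from mice that carried Myh6MCM Tg/0, a Cre recombinase driven in cardiomyocytes by the Myh6 promoter that acts only after tamoxifen. All mice, controls included, received tamoxifen at 6 to 8 weeks of age (100 µL of a 4 mg/mL solution daily for 4 days), and the hearts were perfused before RNA was taken. In the time course (26 NEBNext poly(A) libraries, full-length reads), the hearts were Lmna F/F or Lmna +/+, with 4 against 5 libraries at 1 week after tamoxifen, 2 against 3 at 11 days and 5 against 7 at 2 weeks. In the cGas cross (20 QuantSeq libraries, which read transcripts from their 3′ ends), all hearts were taken at 2 weeks: 4 Lmna F/F cGas null, 4 Lmna F/+ cGas null, 6 Lmna F/F cGas +/+ and 6 Lmna F/+ cGas +/+. F marks the floxed allele, so the controls of the time course carried no floxed Lmna allele while those of the cross carried 1. Lmna deletion was thus aimed at cardiomyocytes alone, whereas the RNA came from all cells of the heart. The libraries of the time course address when expression changes after Lmna deletion, and the cross addresses whether the changes depend on cGas.

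Cytosolic DNA is a danger signal in mammalian cells, since DNA is normally kept inside the nucleus and the mitochondria. The enzyme cGAS (gene Cgas) binds such DNA and makes the messenger cGAMP, which activates the adaptor STING (Sting1) on the endoplasmic reticulum. STING then recruits the kinase TBK1 (Tbk1) or its relative IKKε (Ikbke), and the transcription factor IRF3 (Irf3) is phosphorylated and drives type I interferon and other antiviral genes. ZBP1 (Zbp1) binds left-handed Z-form nucleic acid and can start cell death through RIPK3, while IFI204 (Ifi204) and AIM2 (Aim2) are DNA-binding proteins of the PYHIN family, of which AIM2 assembles an inflammasome. TREX1 (Trex1) degrades DNA in the cytosol, SAMHD1 (Samhd1) degrades deoxynucleotides, and loss of either leads to spontaneous interferon production. Macrophages and other immune cells use these genes strongly, and several of them are themselves induced by interferon.

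Levels are in normalised CPM (read counts relative to the TMM-adjusted total of their library), while differences are log2 fold changes with their SE, estimated by edgeR's quasi-likelihood test. A gene was called at a Benjamini-Hochberg adjusted p under 0.05 over all genes tested in the kit. Total counts per library were 8477358 to 25856892 in NEBNext and 22099181 to 33993289 in QuantSeq. Of these, mitochondrially encoded genes took 4.04% to 31.7% in NEBNext and 45.9% to 58.9% in QuantSeq. Whether every library came from its own mouse is not labelled, and the p-values cover the spread between libraries. Lmna itself lay lower in F/F libraries at 1 week (27.0 to 36.9 against 45.0 to 67.7 CPM, ranges apart). It was not called at 1 week, 11 days or 2 weeks (edgeR adjusted p = 0.315, 0.558 and 0.0983). By 2 weeks F/F replicate 1 had 42.2 CPM and the other 4 F/F libraries 82.8 to 108, against 105 to 125 in +/+. At 11 days it did not separate the arms (58.3 and 58.4 CPM against 106, 118 and 52.1), so those libraries are called labelled F/F here. The 3′ tags of QuantSeq show nothing about the Lmna deletion, since no source used here places the floxed part. Of the defining cardiomyocyte markers Myh6, Tnnt2, Tnni3, Actc1, Ryr2, Pln, Myl2 and Myl3, none was at 0 in every library of any group.

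The genes differed widely in abundance. On the deposited TPM scale, which corrects for gene length, Trex1 was the most abundant over the 26 NEBNext libraries (mean 48.7 TPM), followed by Irf3 (20.04), Sting1 (11.4), Samhd1 (9.26), Zbp1 (7.52), Ifi204 (6.06) and Tbk1 (5.98). Ikbke (0.989), Aim2 (0.654) and Cgas (0.332 TPM) were the scarcest. In the +/+ hearts of 2 weeks the order was Trex1 (34.5 TPM), Irf3 (22.3), Tbk1 (7.75), Samhd1 (7.62), Sting1 (5.78), Ifi204 (3.87), Zbp1 (1.42), Aim2 (0.546), Ikbke (0.501) and Cgas (0.231). Trex1, Irf3 and Ifi204 each lay wholly above the next gene in that order, while the libraries' ranges of the other neighbours overlapped. In the F/F hearts of 2 weeks the order was Trex1 (80.2 TPM), Sting1 (29.7), Zbp1 (27.6), Irf3 (26.2), Ifi204 (22.0), Samhd1 (19.3), Tbk1 (11.5), Ikbke (3.20), Aim2 (1.52) and Cgas (0.983), and Tbk1 alone lay wholly above its next neighbour. Cgas was last in both orders, so its values rest on few reads: 268 reads over the 5 F/F libraries and 79 over the 7 +/+ libraries of 2 weeks.

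At 2 weeks after tamoxifen, 8 of the 10 genes were higher in Lmna F/F than in Lmna +/+ hearts and none was lower. The increases covered every sensor and binding protein (Cgas, Zbp1, Ifi204, Aim2), the adaptor Sting1, the kinase Ikbke, the nuclease Trex1 and the deoxynucleotide-degrading Samhd1. The kinase Tbk1 and the transcription factor Irf3 were not called. Of all 15627 genes tested, 29.2% were called in this comparison and 16.2% were called higher. The median log2 fold change of the 10 genes was 1.33, against 0.037 over all genes tested.

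**Figure D1:**
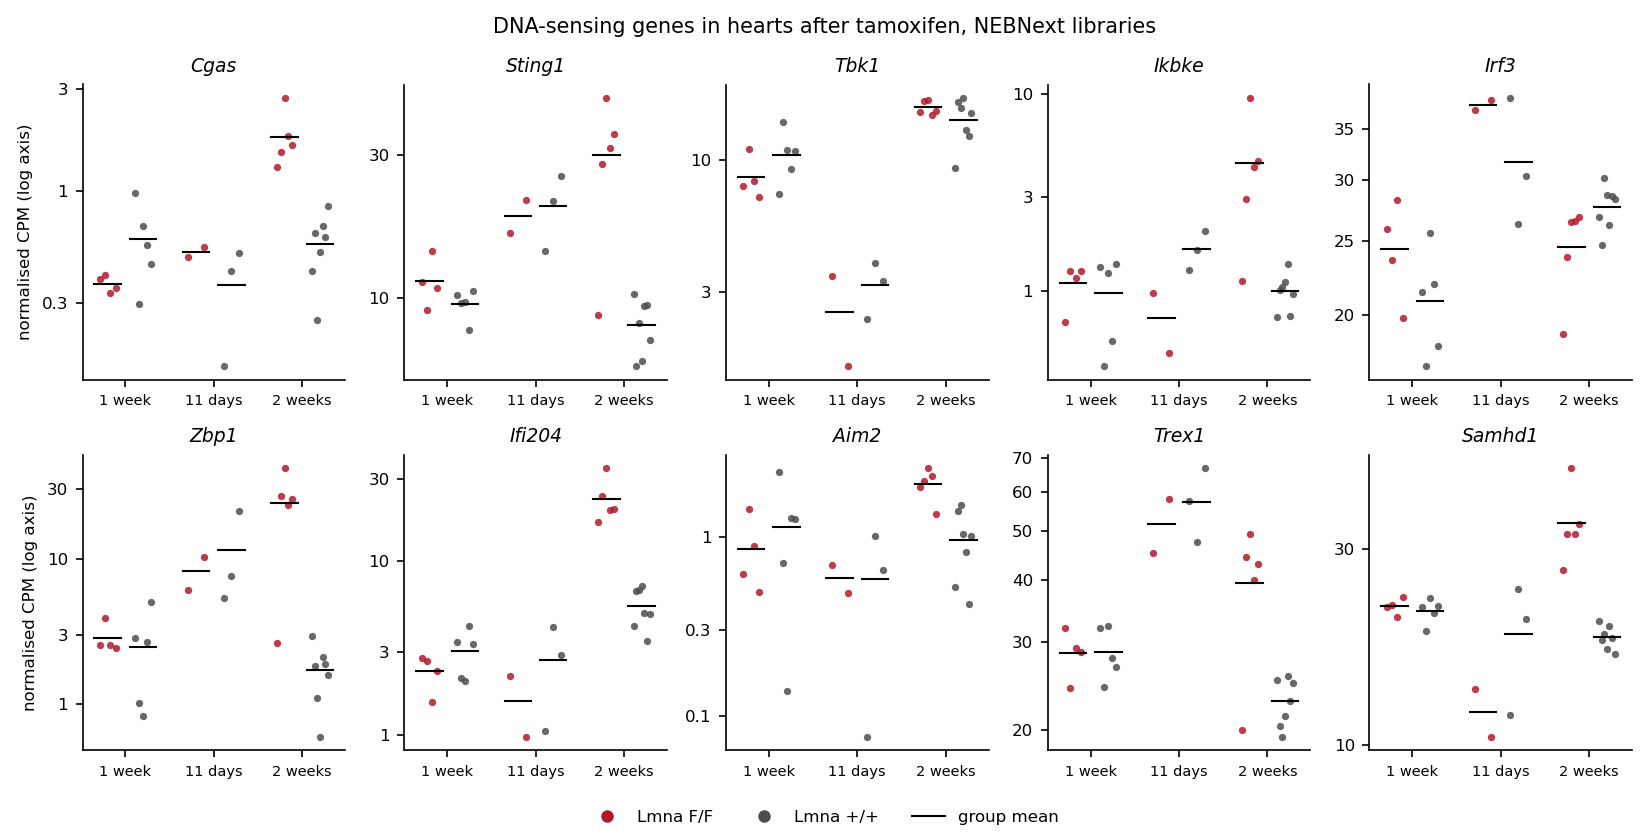
Normalised CPM of the 10 genes in each NEBNext library (log axis, 1 point per library), with Lmna F/F left of Lmna +/+ at 1 week, 11 days and 2 weeks and a bar at the group mean. At 2 weeks the F/F points of Cgas, Ifi204 and Samhd1 lie above all +/+ points, and F/F replicate 1 (the left-most F/F point) lies low for Sting1, Zbp1, Ikbke and Trex1.

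Among the sensors, Cgas (ENSMUSG00000032344.18) had 1.29, 1.52, 2.72, 1.80 and 1.64 CPM in the 5 F/F libraries of 2 weeks, against a lowest, median and highest value of 0.251, 0.611 and 0.852 CPM in the 7 +/+ libraries. The groups did not overlap, and the log2 fold change was 1.48 ± 0.30 (edgeR adjusted p = 0.00075). Zbp1 (ENSMUSG00000027514.15) had 2.64, 26.9, 41.7, 23.3 and 25.6 CPM in F/F libraries, against 0.592, 1.84 and 2.95 CPM (lowest, median, highest) in +/+ libraries. F/F replicate 1 lay inside the +/+ range and the other 4 far above it. The Zbp1 log2 fold change, 3.60 ± 0.52 (adjusted p = 2.68e-05), was the largest of the 10 genes. Ifi204 (ENSMUSG00000073489.7), the mouse PYHIN protein often likened to human IFI16, had 16.8, 23.7, 34.3, 19.7 and 20.1 CPM in F/F libraries, against 3.48, 5.06 and 7.25 CPM in +/+ libraries. All 5 F/F libraries lay above all +/+ libraries, with a log2 fold change of 2.19 ± 0.26 (adjusted p = 3.65e-06). Aim2 (ENSMUSG00000037860.16) had 1.91, 2.07, 2.43, 2.19 and 1.36 CPM in F/F libraries, against 0.423, 1.01 and 1.51 CPM in +/+ libraries. Only F/F replicate 5 fell inside the +/+ range, and the log2 fold change was 1.19 ± 0.43 (adjusted p = 0.0407). The Aim2 call had the highest adjusted p of the 8 and was lost in 8 of the 12 fits that left out 1 library of the comparison, where its adjusted p reached 0.137 (without +/+ replicate 6).

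Sting1 (ENSMUSG00000024349.11), the adaptor, had 8.75, 28.0, 46.7, 31.8 and 35.4 CPM in F/F libraries of 2 weeks, against 5.89, 8.23 and 10.3 CPM in +/+ libraries. F/F replicate 1 again lay inside the +/+ range, with the other 4 above it, and the log2 fold change was 1.65 ± 0.26 (adjusted p = 7.07e-05). The kinases below it differed from each other. Ikbke (ENSMUSG00000042349.14) had 1.12, 2.93, 9.53, 4.26 and 4.56 CPM in F/F libraries, against 0.737, 1.01 and 1.38 CPM in +/+ libraries. Its log2 fold change was 1.88 ± 0.39 (adjusted p = 0.000828), with replicate 1 the only F/F library inside the +/+ range. Tbk1 (ENSMUSG00000020115.4) had 15.5, 17.2, 17.3, 15.1 and 15.7 CPM in F/F libraries, against 9.27, 15.3 and 17.6 CPM in +/+ libraries. These ranges overlapped, and its log2 fold change was 0.22 ± 0.19 with a 95% interval of -0.17 to 0.61 (adjusted p = 0.408). Without TMM scaling it was 0.48 (edgeR adjusted p = 0.088), where the median of all genes was 0.29. On deposited TPM it was 0.51 (limma-trend adjusted p = 0.0588). With mitochondrially encoded genes left out it was 0.20 (edgeR adjusted p = 0.458). Irf3 (ENSMUSG00000003184.16), which TBK1 phosphorylates, had 18.9, 23.8, 26.4, 26.5 and 26.8 CPM in F/F libraries, against 24.7, 28.3 and 30.2 CPM in +/+ libraries. The groups overlapped, and the log2 fold change was -0.25 ± 0.13 with a 95% interval of -0.51 to 0.014 (adjusted p = 0.148). The sign for Irf3 turned, to 0.014 without TMM scaling and to 0.043 on deposited TPM. Irf3 activity is set by phosphorylation, which RNA levels do not show.

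Trex1 and Samhd1 showed smaller increases. Trex1 (ENSMUSG00000049734.10) had 20.03, 44.5, 49.3, 40.0 and 43.0 CPM in F/F libraries, against 19.4, 22.9 and 25.7 CPM in +/+ libraries. Replicate 1 lay inside the +/+ range and the other 4 above it, with a log2 fold change of 0.65 ± 0.16 (adjusted p = 0.00334). Without F/F replicate 2 it was 0.50 and was not called (adjusted p = 0.0554). The exons of Trex1 overlap those of Atrip on the same strand, and Atrip had a log2 fold change of -0.15 ± 0.15 (adjusted p = 0.48). Samhd1 (ENSMUSG00000027639.17) had 26.6, 32.5, 46.9, 32.5 and 34.3 CPM in F/F libraries, against 16.7, 18.2 and 20.1 CPM in +/+ libraries. The groups did not overlap, and the log2 fold change was 0.92 ± 0.14 (adjusted p = 3.86e-05). For 3 of the 10 genes (Cgas, Ifi204 and Samhd1) all F/F libraries lay above all +/+ libraries, as 6.68% of all genes tested did.

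The 2-week libraries came from 2 sequencing pools, and F/F replicate 1 belongs to pool KIUC033. Within pool KIUC033 (2 F/F and 5 +/+ libraries), 1 of the 10 genes and 2.5% of all genes were called, the 1 being Ifi204 (log2 fold change 1.74, adjusted p = 0.0209). Within pool KIUC035 (3 F/F and 2 +/+ libraries), 7 of the 10 genes and 32.5% of all genes were called, with Zbp1 at 4.18, Ikbke at 2.81, Ifi204 at 2.54 and Sting1 at 2.25. The sign of all 8 called genes was positive in both pools, and the log2 fold change of Zbp1 was 2.03 and that of Sting1 0.78 in pool KIUC033. Without F/F replicate 1 the same 8 genes and 33.6% of all genes were called, with log2 fold changes of 4.18 for Zbp1, 2.39 for Ikbke and 2.07 for Sting1.

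The promoter is shown for Cgas, the sensor that gives the pathway its name. RefSeq windows (build GRCm38.p6, which differs from the mm39 build of the counts) run from 250 bases before the transcription start to 50 after it, and they held 8 windows of 7 of the 10 genes. Zbp1, Ifi204 and Sting1 were not among them. More than 1 motif was searched, and the one reported here, on both strands, was GAAA and GAAA with any 2 bases between them, which resembles the interferon-stimulated response element. It was in 0 of the 8 windows and in 3.44% of all 32851 windows. The promoter of Cgas is written 5′ to 3′ on the gene's own minus strand, from chr9:78443188-78443487, and has no capitals because it holds no match to that motif.
Cgas: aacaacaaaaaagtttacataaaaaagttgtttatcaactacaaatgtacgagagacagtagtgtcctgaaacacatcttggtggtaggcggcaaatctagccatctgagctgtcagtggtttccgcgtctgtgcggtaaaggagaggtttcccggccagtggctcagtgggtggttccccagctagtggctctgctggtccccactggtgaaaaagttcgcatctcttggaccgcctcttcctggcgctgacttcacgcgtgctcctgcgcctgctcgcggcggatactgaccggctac
A search of letters in this window shows nothing about binding.

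At 1 week after tamoxifen none of the 10 genes was called between F/F and +/+ hearts by edgeR, none had an unadjusted p under 0.05, and DESeq2 called none. Of all genes tested 0.0256% were called, and 9.85% had an unadjusted p under 0.05. Cgas had 0.387, 0.404, 0.333 and 0.354 CPM in F/F libraries, against 0.975, 0.297, 0.684, 0.558 and 0.459 CPM in +/+ libraries. Zbp1 had 2.56, 3.93, 2.55 and 2.41 CPM in F/F libraries, against 2.84, 1.01, 0.821, 2.68 and 5.05 CPM in +/+ libraries. Both pairs of groups overlapped, and the log2 fold changes were -0.65 ± 0.41 for Cgas (adjusted p = 0.603) and 0.21 ± 0.58 for Zbp1 (adjusted p = 0.919). The 95% intervals reached 0.19 for Cgas, 0.83 for Sting1, 1.40 for Zbp1 and 0.21 for Ifi204, and the lower bound of the 2-week interval of each was higher (0.86, 1.11, 2.53 and 1.65). The same held for Samhd1 (0.32 and 0.64). The intervals of the 2 times overlapped for Ikbke (upper bound 1.10, lower bound 1.08), Aim2 (0.60 and 0.30) and Trex1 (0.36 and 0.32). Those of Tbk1 and Irf3 overlapped as well. Samhd1 and Trex1 had the values nearest 0, at 0.0085 ± 0.15 and 0.014 ± 0.17.

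At 11 days, with 2 labelled F/F against 3 +/+ libraries, none of the 10 genes was called by edgeR or by DESeq2, and 1 had an unadjusted p under 0.05. Of all genes tested 0% were called, and 8.33% had an unadjusted p under 0.05. Samhd1 had 13.7 and 10.5 CPM in labelled F/F libraries, against 11.8, 23.9 and 20.3 CPM in +/+ libraries. The groups overlapped, and its log2 fold change was -0.58 ± 0.21 (edgeR adjusted p = 0.466). It was called lower (-0.80, adjusted p = 0.0359) when +/+ replicate 1 was left out. Ikbke had 0.984 and 0.487 CPM in labelled F/F libraries, against 1.29, 1.62 and 2.01 CPM in +/+ libraries. The groups did not overlap, with labelled F/F lower, as for 11% of all genes tested, and the log2 fold change was -1.10 ± 0.58 (adjusted p = 0.628). Sting1 had 16.4 and 21.2 CPM in labelled F/F libraries, against 14.3, 21.1 and 25.7 CPM in +/+ libraries, and the groups overlapped.

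**Figure D2:**
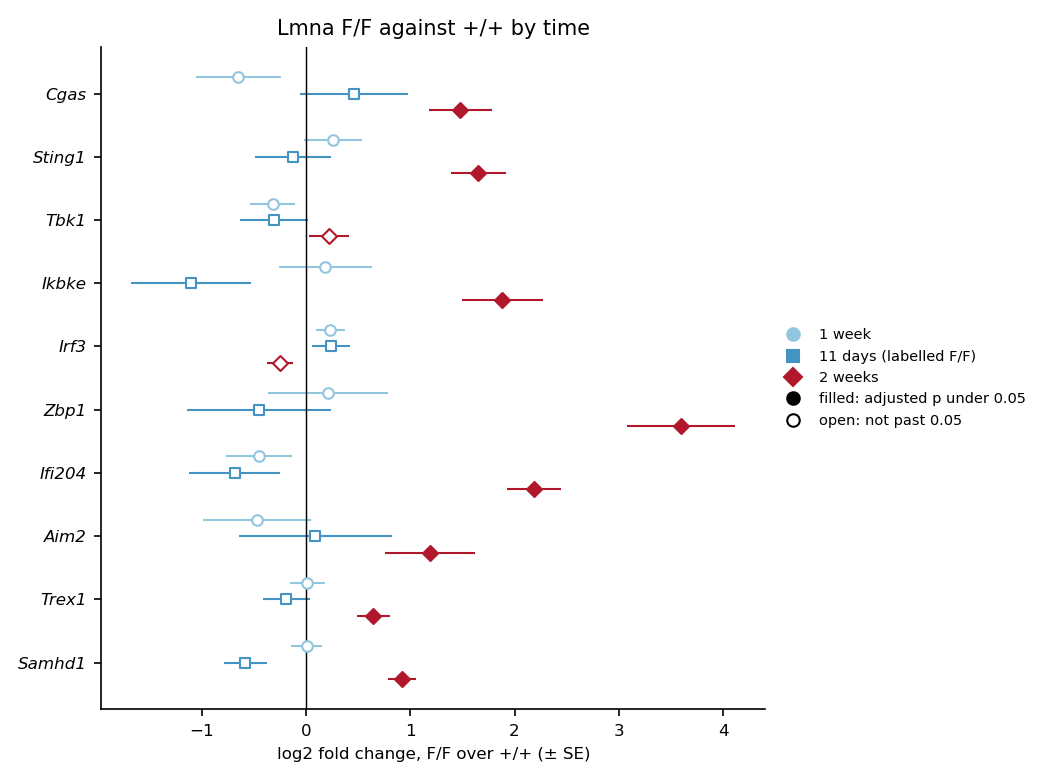
Log2 fold change ± SE of Lmna F/F over Lmna +/+ at 1 week, 11 days and 2 weeks for each of the 10 genes, from the edgeR fit (filled points have an adjusted p under 0.05). The 8 called points belong to 2 weeks, with Zbp1 at 3.60 and Trex1 at 0.65.

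The change of the Lmna effect between 1 week and 2 weeks was tested as an interaction, which uses the 2-week libraries again and adds those of 1 week. It was called for 5 of the 10 genes, all positive: Zbp1 (3.38 ± 0.79, adjusted p = 0.00798), Ifi204 (2.64 ± 0.42, adjusted p = 0.0013), Cgas (2.13 ± 0.51, adjusted p = 0.00961), Sting1 (1.39 ± 0.39, adjusted p = 0.021) and Samhd1 (0.91 ± 0.21, adjusted p = 0.00642). Of all genes tested, 12.4% were called and 6.52% were called positive. Ikbke (1.70 ± 0.60, adjusted p = 0.0635), Aim2 (1.65 ± 0.69, adjusted p = 0.112), Trex1 (0.63 ± 0.23, adjusted p = 0.075), Tbk1 (0.54 ± 0.29, adjusted p = 0.224) and Irf3 (-0.48 ± 0.19, adjusted p = 0.0914) did not pass. The calls of Sting1 and Zbp1 were lost without F/F 2 weeks replicate 2 (1.23, adjusted p = 0.0741, and 2.81, adjusted p = 0.0531), where the count fell to 3. That of Sting1 was also lost without F/F 2 weeks replicate 3 (1.13, adjusted p = 0.0609) and without +/+ 2 weeks replicate 7 (1.13, adjusted p = 0.0705). Each time was sequenced in pools of its own, so time and pool cannot be told apart.

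In the cGas cross, Cgas tags were fewer in cGas null hearts but were not at 0. The 4 Lmna F/F cGas null libraries had 1.20, 0.609, 0.741 and 0.955 CPM of Cgas (102 reads in all), against 1.97 to 3.79 CPM with a median of 2.87 in the 6 Lmna F/F cGas +/+ libraries (473 reads). The 4 Lmna F/+ cGas null libraries had 0.686, 0.497, 0.819 and 0.258 CPM (54 reads), against 0.851 to 2.39 CPM with a median of 1.14 in the 6 Lmna F/+ cGas +/+ libraries (200 reads). The groups did not overlap in either pair. Means of the null hearts were 30.4% of cGas +/+ among F/F and 39.0% among F/+ hearts. All 4 F/+ cGas null libraries were from males, and the 2 male libraries among the F/+ cGas +/+ had 1.23 and 0.851 CPM. In the edgeR fit the log2 fold changes were -1.71 ± 0.33 (unadjusted p = 2.91e-05, adjusted p = 0.26) among F/F and -1.54 ± 0.40 (adjusted p = 0.993) among F/+ hearts, so Cgas was not called over all genes; DESeq2 called it among F/F hearts (-1.72, adjusted p = 0.00123). No source used here says which part of the gene the null allele lacks, and a 3′ tag does not measure whether the protein is made. The exons of Cgas overlap those of the transcribed pseudogene Gm8093 on the other strand. The strand setting of the counts is not named, so its reads may be among those counted for Cgas.

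In hearts without cGas, edgeR called none of the 10 genes between Lmna F/F and Lmna F/+ libraries. In hearts with cGas, 3 of the 10 were higher in F/F: Sting1, Zbp1 and Ifi204. Of all 14812 genes tested, 0.527% were called without cGas and 4.63% with it (3.74% higher). The median log2 fold change of the 10 genes was 0.56 without cGas and 0.50 with it, against -0.017 and -0.011 over all genes tested. Both medians include Cgas, itself the null gene, and Ikbke, scarce in QuantSeq, at 1.27 ± 0.62 without cGas and 0.34 ± 0.47 with it. Taken gene by gene, the effect without cGas minus the effect with it had a median of -0.13. At an unadjusted p under 0.05 there were 3 of the 10 genes without cGas (10.3% of all genes) and 7 with it (18.9% of all genes). DESeq2 called 1 of the 10 among 251 genes in all without cGas, and 4 among 1054 with it. The comparison without cGas has 4 libraries a group and the one with cGas has 6. Without cGas, 2 of the 4 F/F and all 4 F/+ libraries were from males, against 3 of 6 F/F and 2 of 6 F/+ libraries with cGas.

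**Figure D3:**
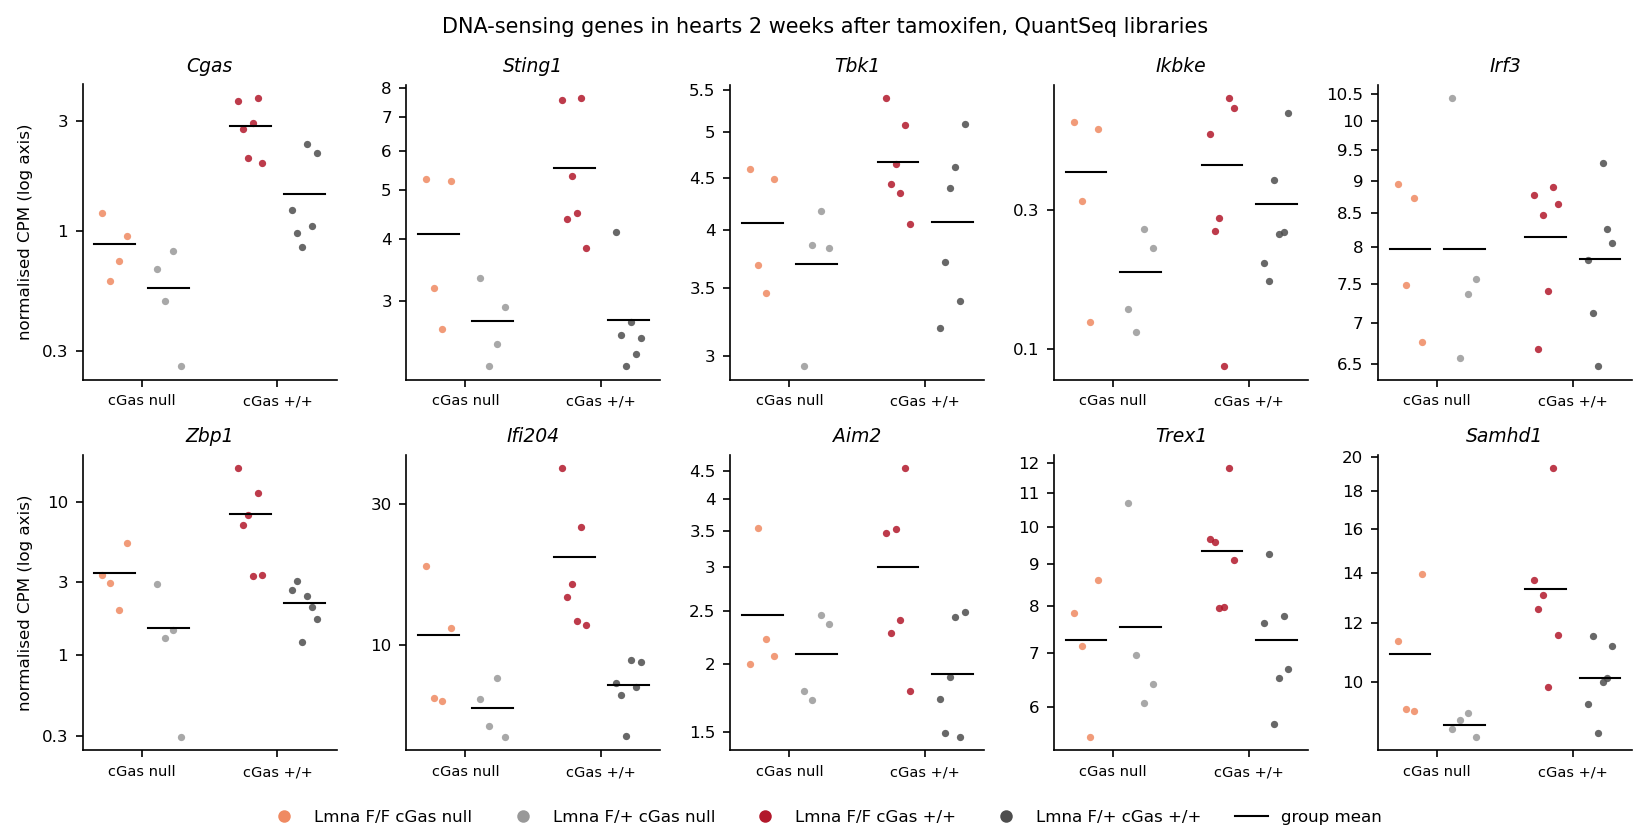
Normalised CPM of the 10 genes in each QuantSeq library (log axis, 1 point per library) in Lmna F/F cGas null, Lmna F/+ cGas null, Lmna F/F cGas +/+ and Lmna F/+ cGas +/+ hearts, with a bar at the group mean. Cgas of both null groups lies below its cGas +/+ counterpart, and Zbp1 and Ifi204 of F/F cGas +/+ lie above all F/+ cGas +/+ points.

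Zbp1 had 3.36, 2.94, 1.98 and 5.40 CPM in F/F and 2.93, 1.30, 1.46 and 0.295 CPM in F/+ hearts without cGas. With cGas it had 3.28 to 16.4 CPM with a median of 7.61 in F/F and 1.23 to 3.03 CPM with a median of 2.25 in F/+ hearts. The groups overlapped without cGas and not with it, and the log2 fold changes were 1.41 ± 0.51 without cGas (adjusted p = 0.261) and 1.77 ± 0.40 with it (adjusted p = 0.0127). Ifi204 had 18.5, 6.59, 6.46 and 11.4 CPM in F/F and 6.54, 5.31, 7.71 and 4.87 CPM in F/+ hearts without cGas. With cGas it had 11.6 to 39.4 CPM with a median of 15.3 in F/F and 4.92 to 8.83 CPM with a median of 7.30 in F/+ hearts. Again the groups overlapped without cGas and not with it, with log2 fold changes of 1.02 ± 0.33 (adjusted p = 0.175) and 1.24 ± 0.27 (adjusted p = 0.0089). Sting1 had 5.27, 3.19, 2.63 and 5.21 CPM in F/F and 3.34, 2.22, 2.46 and 2.91 CPM in F/+ hearts without cGas. With cGas it had 3.83 to 7.65 CPM with a median of 4.92 in F/F and 2.22 to 4.13 CPM with a median of 2.54 in F/+ hearts. Both pairs of groups overlapped, and the log2 fold changes were 0.81 ± 0.22 without cGas (adjusted p = 0.101) and 0.90 ± 0.18 with it (adjusted p = 0.0051). The calls of Zbp1 and Ifi204 with cGas were lost without F/+ cGas +/+ replicate 1 (adjusted p = 0.0555 and 0.0564), which left Sting1 as the only call. That of Zbp1 was also lost without F/+ cGas +/+ replicate 3 (1.55, adjusted p = 0.0631). Without cGas, all 3 genes were called in some other fit: Sting1 by DESeq2 (0.81, adjusted p = 0.0497), Ifi204 from the 8 libraries of that comparison alone (1.29, adjusted p = 0.0205), and Zbp1 (1.43, adjusted p = 1.45e-05) and Ifi204 (1.02, adjusted p = 0.000194) with no filter on low counts. Ranges that do not overlap, with F/F above, held for 1 of the 10 genes, Samhd1, without cGas (3.21% of all genes) and for 2 with it (2.39%).

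The other 7 genes were not called in either arm. Cgas itself had a log2 fold change of 0.74 ± 0.40 without cGas (adjusted p = 0.571) and 0.91 ± 0.29 with it (adjusted p = 0.0727). DESeq2 called the difference with cGas (0.91, adjusted p = 0.0286). Samhd1 had 11.3, 9.21, 9.14 and 13.9 CPM in F/F and 8.64, 8.91, 9.09 and 8.44 CPM in F/+ hearts without cGas. These groups did not overlap, and the log2 fold change was 0.37 ± 0.19 (adjusted p = 0.514), as it was with cGas at 0.37 ± 0.15 (adjusted p = 0.167). Aim2 had log2 fold changes of 0.25 ± 0.30 without cGas (adjusted p = 0.872) and 0.64 ± 0.23 with it (adjusted p = 0.127). Trex1 had log2 fold changes of -0.0038 ± 0.20 without cGas and 0.34 ± 0.16 with it. Those of Tbk1 were 0.18 ± 0.19 and 0.17 ± 0.15, and those of Irf3 were -0.025 ± 0.17 and 0.064 ± 0.13, without cGas and with it. Ikbke was too scarce in QuantSeq to be placed, with 49 and 18 reads in F/F and F/+ hearts without cGas and log2 fold changes of 1.27 ± 0.62 and 0.34 ± 0.47.

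The difference between the Lmna effects without and with cGas was tested directly. None of the 10 genes was called by edgeR or DESeq2, and none had an unadjusted p under 0.05. Of all genes tested 0% were called, and 1.45% had an unadjusted p under 0.05. The effect without cGas minus the effect with cGas was -0.090 for Sting1 (95% interval -0.70 to 0.52), -0.36 for Zbp1 (-1.74 to 1.03), -0.22 for Ifi204 (-1.13 to 0.68) and 0.00093 for Samhd1 (-0.49 to 0.49). For Tbk1 it was 0.014 (-0.49 to 0.52), for Irf3 -0.089 (-0.55 to 0.38) and for Trex1 -0.35 (-0.90 to 0.21). The intervals ran from -1.25 to 0.92 for Cgas, from -1.22 to 0.43 for Aim2 and from -0.72 to 2.58 for Ikbke. An adjusted p of 1 for all 10 does not show that the effects are alike.

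**Figure D4:**
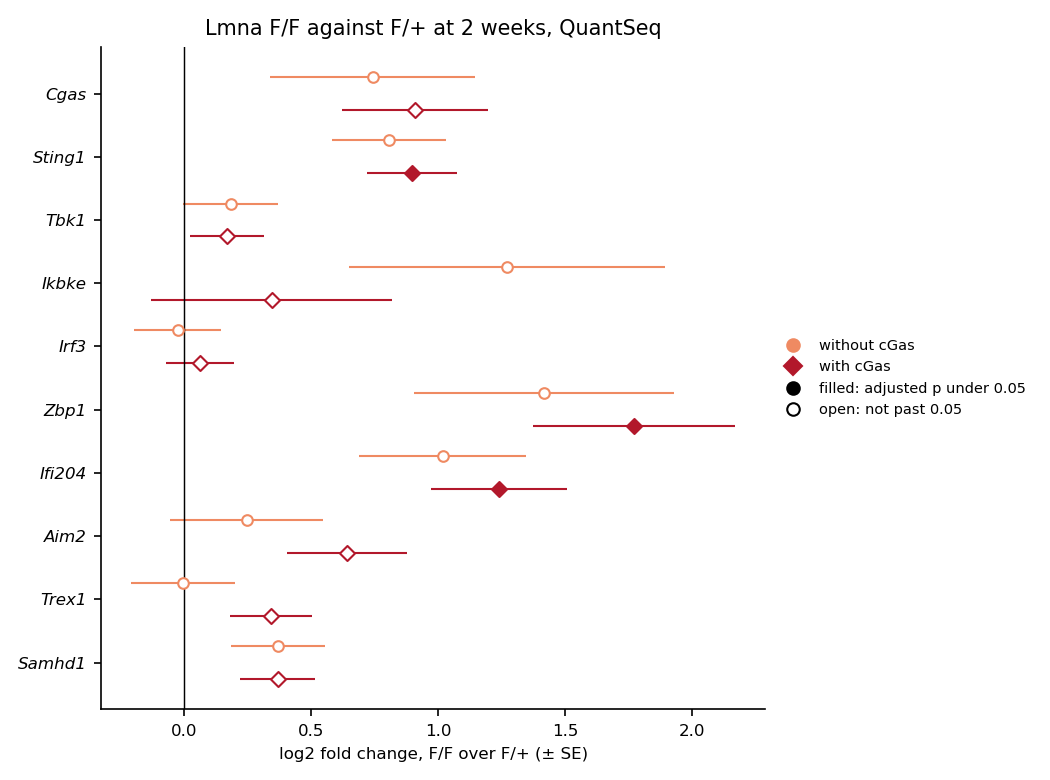
Log2 fold change ± SE of Lmna F/F over Lmna F/+ for each of the 10 genes in hearts without cGas and with cGas, from the edgeR fit of the 20 QuantSeq libraries (filled points have an adjusted p under 0.05). The error bars of the arms overlap for all 10 genes, and the filled points are Sting1, Zbp1 and Ifi204 with cGas.

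Within one Lmna genotype, cGas null and cGas +/+ hearts were also set against each other, from the same libraries. Among F/F hearts edgeR called none of the 10 genes (0% of all genes), 4 had an unadjusted p under 0.05 (5.74% of all genes) and DESeq2 called 1, Cgas. Beside Cgas these were Zbp1 (-1.27 ± 0.43, adjusted p = 0.85), Ifi204 (-0.91 ± 0.29, adjusted p = 0.85) and Sting1 (-0.46 ± 0.19, adjusted p = 0.864). Among F/+ hearts edgeR and DESeq2 called none (0% of all genes), and Cgas alone had an unadjusted p under 0.05 (4.16% of all genes). The log2 fold changes there were -0.91 ± 0.53 for Zbp1, -0.68 ± 0.34 for Ifi204 and -0.37 ± 0.23 for Sting1 (adjusted p = 0.993 each). From the 10 F/+ libraries alone they were -0.40, -0.019 and -0.22, with Cgas at -0.89, and with no covariate for sex -0.57, -0.26 and -0.011. Cgas had lower ranges in null hearts in both genotypes, as 0.412% of all genes among F/F and 0.466% among F/+ hearts did.

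At 2 weeks both kits compared Lmna F/F hearts that carry cGas with controls, +/+ in NEBNext and F/+ in QuantSeq, in different libraries. The sign of the log2 fold change was the same for 9 of the 10 genes, the exception being Irf3. It was smaller in QuantSeq for 9 of the 10. Zbp1 had 3.60 in NEBNext and 1.77 in QuantSeq, Ifi204 2.19 and 1.24, Sting1 1.65 and 0.90, and Ikbke 1.88 and 0.34. The kits differ in chemistry, depth, the share of mitochondrial reads and the allele of the controls, so the cause of the smaller values was not tested.

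The other genes around the pathway were described by lists chosen with earlier results of these data known. Of the PYHIN family neighbours of Ifi204 and Aim2, 8 of 10 tested were higher at 2 weeks (median log2 fold change 1.84, against 0.037 over all genes), led by Ifi209 (2.77 ± 0.58, adjusted p = 0.000931) and Ifi206 (2.74 ± 0.59, adjusted p = 0.00127). These genes have near copies, so reads between them and Ifi204 may be shared. Of the inflammasome genes, 5 of 6 were higher, led by the cytokine Il1b (2.52 ± 0.45, adjusted p = 0.000237) and Nlrp3 (2.48 ± 0.55, adjusted p = 0.00147). Nlrp3 encodes a sensor other than AIM2. The ZBP1 death pathway had 4 of 5 higher, led by the kinase Ripk3 (1.33 ± 0.22, adjusted p = 0.000102) and by the pseudokinase Mlkl (1.10 ± 0.22, adjusted p = 0.000719).

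The counts of cGAMP-handling genes and STING regulators called higher at 2 weeks were near the share of all genes, 16.2%. In either direction 29.2% of all genes were called. Of 7 genes that degrade or carry cGAMP, 1 was higher, Enpp1, which hydrolyses cGAMP outside the cell (1.52 ± 0.25, adjusted p = 9.52e-05). Enpp1 had 16.1 ± 7.34 CPM in F/F and 5.26 ± 0.722 in +/+ hearts (SD, n = 5 and 7). Of 9 STING regulators 1 was higher, Surf4 (0.30 ± 0.11, adjusted p = 0.0356), and of 6 TBK1 adaptors 1 was lower, the autophagy receptor Optn (-0.93 ± 0.16, adjusted p = 0.000167). The median log2 fold changes of these lists were 0.058, -0.033 and 0.076. Of 10 other nucleases and DNA-masking genes 4 were higher, led by the exonuclease Pld4 (1.69 ± 0.28, adjusted p = 9.47e-05) and by the lysosomal nuclease Dnase2a (0.80 ± 0.21, adjusted p = 0.00618).

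Downstream, 8 of 9 tested outputs of IRF3 were higher at 2 weeks (median 1.60), led by the chemokines Cxcl10 (3.90 ± 0.51, adjusted p = 9.38e-06) and Ccl5 (1.92 ± 0.41, adjusted p = 0.00108). Cxcl10 had 11.8 ± 5.87 CPM in F/F and 0.685 ± 0.589 CPM in +/+ hearts (SD, n = 5 and 7). Many of these outputs also respond to interferon without IRF3. Ifnb1, the interferon that IRF3 drives, did not pass the filter: it had 6 reads over the 5 F/F and 0 over the 7 +/+ libraries of 2 weeks. Of 8 interferon signalling genes 6 were higher, led by Irf7 (1.64 ± 0.34, adjusted p = 0.000929) and Stat2 (1.05 ± 0.20, adjusted p = 0.000341). Of 8 RNA-sensing genes 6 were higher, led by Dhx58 (2.05 ± 0.30, adjusted p = 3.14e-05) and Tlr7 (1.40 ± 0.24, adjusted p = 0.00017), and the adaptor Mavs was lower (-0.69 ± 0.14, adjusted p = 0.000886).

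In the cGas cross no gene of the same lists was called without cGas, where 0.527% of all genes were called. At so small a share, the lack of calls in lists of this size says little. In hearts with cGas 3.74% of all genes were called higher. With cGas, 3 of 10 PYHIN neighbours, 1 of 6 inflammasome genes (Il1b), 1 of 9 nucleases (Pld4), 1 of 6 cGAMP genes (Enpp1), 1 of 8 RNA-sensing genes (Tlr7) and 1 of 9 IRF3 outputs (Cxcl10) were higher. Cxcl10 had log2 fold changes of 1.81 ± 0.60 without cGas (adjusted p = 0.193) and 2.12 ± 0.46 with it (adjusted p = 0.00979), and Enpp1 of 0.80 ± 0.22 (adjusted p = 0.0909) and 0.80 ± 0.17 (adjusted p = 0.00868). The median log2 fold change of the IRF3 outputs was 0.51 without cGas and 0.91 with it, and no gene of any list was called in the test of the difference between the effects. Between cGas null and cGas +/+ hearts none of the IRF3 outputs or PYHIN neighbours was called. Among F/F hearts 7 of 9 IRF3 outputs (median -0.89) and 5 of 10 PYHIN neighbours (median -0.98) had an unadjusted p under 0.05, against 5.74% of all genes. Among F/+ hearts these were 0 of 9 (median -0.60) and 2 of 10 (median -0.70), against 4.16% of all genes. Of the other lists among F/F hearts, inflammasome genes had 2 of 6, interferon signalling 2 of 8 and RNA sensing 1 of 8. Nucleases had 1 of 9, TBK1 adaptors 1 of 6, cGAMP genes 0 of 6, STING regulators 0 of 9 and the ZBP1 death pathway 0 of 5. Among cell markers, macrophages and monocytes had 6 of 18 (median -0.48) and endothelium 4 of 6 (median 0.45). The part of cell makeup in these values was not tested.

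Several lists of cell markers moved with these results. At 2 weeks 16.2% of all genes tested were called higher and 29.2% in either direction. Of 18 macrophage and monocyte markers, 17 were higher in F/F hearts at 2 weeks (median log2 fold change 1.91), and their summed level was 997 to 4354 CPM in F/F against 572 to 862 CPM in +/+ hearts. Ccr2 (4.06 ± 0.42), Ly6c2 (3.67 ± 0.56) and Cd68 (2.32 ± 0.31) were among them, and none of the 18 was at 0 in every library of a group. F/F replicate 1, low for Sting1, Zbp1, Ikbke and Trex1, had the lowest marker sum of the F/F libraries (997 CPM) and replicate 3, the highest for all 10 genes but Irf3, had the highest (4354 CPM). Replicate 1 also had the largest share of reads from mitochondrially encoded genes, 28.9%, against 9.16% to 15.2% in the other 4 F/F and 12.3% to 22.8% in the +/+ libraries of 2 weeks. With those genes left out, 8 of the 10 genes were again called at 2 weeks. In the cross the sums were 431 to 921 CPM in F/F and 366 to 604 CPM in F/+ hearts without cGas, where 3 of 18 markers were higher (median 0.93). With cGas they were 645 to 1630 CPM in F/F and 389 to 513 CPM in F/+ hearts, where 14 of 18 were higher (median 1.03). Of all genes tested, 0.527% were called without cGas and 3.74% were called higher with it. At an unadjusted p under 0.05 there were 16 of 18 markers without cGas (10.3% of all genes) and 17 with it (18.9% of all genes). At 1 week the macrophage and monocyte sums were 723 to 814 CPM in F/F and 575 to 947 CPM in +/+ hearts. At 11 days the atrial marker sums were 66.6 to 83.4 CPM in labelled F/F and 82.6 to 1313 CPM in +/+ hearts (median log2 fold change -5.07). The fibroblast marker sums there were 500 to 578 CPM and 578 to 1821 CPM (median -0.95). No marker of these lists was called at 11 days. At 2 weeks 6 of 10 T and NK cell markers (median 1.67), 4 of 6 dendritic cell markers (median 1.93) and 5 of 6 fibroblast markers (median 0.83) were higher. So were 1 of 4 neutrophil markers (median 0.89), 0 of 2 B cell markers (median -0.45) and 0 of 5 atrial markers (median -0.66). In lists this small, such counts are near the share of all genes called higher. The atrial sums varied widely within groups, from 16.7 to 369 CPM in F/F and from 30.0 to 505 CPM in +/+ hearts. Of 6 endothelial markers 3 were lower (median -0.49), and of 8 cardiomyocyte markers 7 were lower (median -0.67). The part of these cell types in the values of the 10 genes was not tested. In bulk RNA a larger share of cells of a type and more RNA per cell cannot be told apart.

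**Figure D5:**
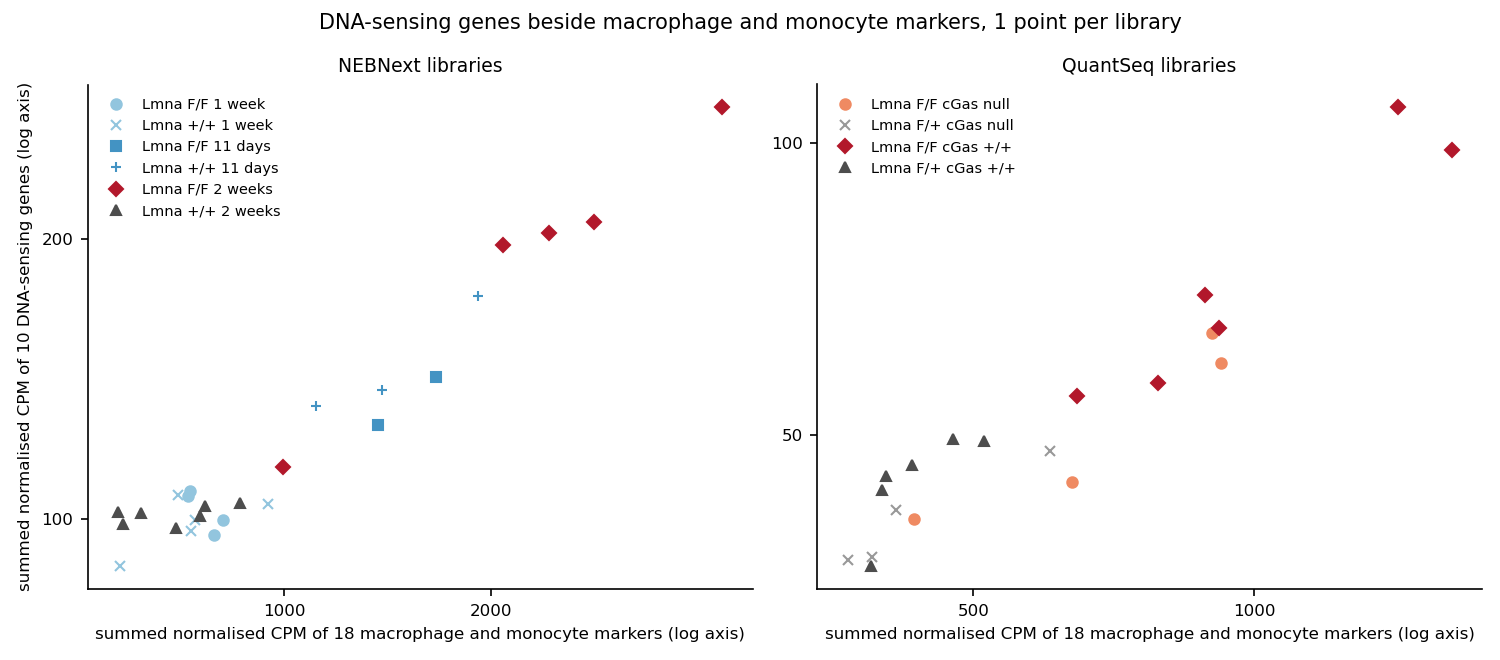
Summed normalised CPM of the 10 DNA-sensing genes against the summed normalised CPM of 18 macrophage and monocyte markers (both log axes, 1 point per library), NEBNext left and QuantSeq right. The F/F libraries of 2 weeks run from 114 and 997 CPM in replicate 1 to 277 and 4354 CPM in replicate 3, for the 10 genes and the markers.

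The genes whose deviations from their group means were most like those of Cgas, Sting1 and Zbp1 were found within each kit over all genes tested, by Pearson's r of log2(CPM + 1). This is a description over libraries that share depth, scaling and cell makeup. Over the 26 NEBNext libraries, Cgas was most like Tns3 (r = 0.87), St3gal1 (0.83) and Sf3b4 (0.83). Sting1 was most like Cfl1 (0.93), Tubb6 (0.93) and the macrophage gene Cd68 (0.92), and Zbp1 most like Hk3 (0.94), Phf11b (0.93) and Slfn1 (0.93). Over the 20 QuantSeq libraries, Cgas was most like Rab7b (0.85), Medag (0.85) and the proliferation gene Mki67 (0.82). Sting1 was most like Cd72 (0.90), Ankrd1 (0.87) and C3ar1 (0.86), and Zbp1 most like Ly6c2 (0.87), Tyrobp (0.87) and Cd53 (0.87). None of these genes was named for the same gene in both kits.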

How the data were processed

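RNA of 46 perfused mouse hearts was sequenced. The authors deposited raw read counts per gene and a second table of normalised values. Per the submitters' processing notes, STAR 2.7.9 and build mm39 were used. The counting tool, annotation and strand setting are not named by any source used here, so overlapping genes can share reads. In the second table the 26 NEBNext columns hold deposited TPM (gene lengths not stated), and the 20 QuantSeq columns hold deposited CPM (largest difference from counts scaled by the library total 4.66e-10). Columns were matched by sample title, with 0 left over.

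Counts were tested with edgeR 4.0.16 in R 4.3.3: TMM, filterByExpr by group (minimum count 10, minimum total 15), quasi-likelihood F test, Benjamini-Hochberg over all genes tested, threshold 0.05. The NEBNext libraries (15627 genes; covariates sex and, within 2 weeks, sequencing pool) and the QuantSeq libraries (14812 genes; covariate sex) were fitted apart. Alternatives were DESeq2 1.42.0, RLE scaling, no scaling factor (added after seeing the data), no filter, no covariates, mitochondrially encoded genes left out, limma-trend 3.58.1 on log2(TPM + 0.5), the compared groups alone, pools apart, and each library left out. The fits were tested on simulated counts. Annotation overlaps come from GENCODE on GRCm38.

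The 10 genes and all lists were chosen with earlier results of these data known. All 10 are named. From each list the called gene with the largest log2 fold change at 2 weeks is named, and the next one where 4 or more were called. Any other list or marker gene named was chosen after its values were seen.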

Additional observations from a re-analysis of the deposited data

Results flagged for a closer look

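In 80 groups of 4 to 7 libraries (10 genes in 8 groups), 3 single values stood apart from the rest of their group, where chance gives about 5% of groups. Aim2 was at 3.55 CPM in F/F cGas null replicate 2, against 2.00 to 2.22 CPM in the other 3 libraries. Sting1 was at 4.13 CPM in F/+ cGas +/+ replicate 1, against 2.22 to 2.72 CPM in the other 5. Zbp1 was at 3.93 CPM in F/F 1 week replicate 2, against 2.41 to 2.56 CPM in the other 3.

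The effect of Lmna F/F differed between 2 weeks and 1 week by the interaction test for 5 genes, by 2.13 for Cgas, 1.39 for Sting1, 3.38 for Zbp1, 2.64 for Ifi204 and 0.91 for Samhd1 on the log2 scale. Sequencing pool and time cannot be told apart there.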

How the results depend on the processing

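No paired analysis was possible because each title carries its own number, and replicates were numbered in accession order, which pairs nothing. The count of the 10 genes called at 2 weeks was 8 in each alternative over all libraries and 7 in pool KIUC035, but 1 in pool KIUC033 (2 against 5 libraries, 349 of 13970 genes called). Leaving out 1 library gave 6 to 8 there, 0 at 1 week, 0 to 1 at 11 days, 3 to 7 for the difference between 2 weeks and 1 week, 1 to 4 for F/F against F/+ with cGas and 0 in the other 4 comparisons. Without cGas the count was 0 by edgeR, 1 by DESeq2, 2 with no filter on low counts and 1 from the compared libraries alone. For cGas null against cGas +/+ it was 0 by edgeR, 1 by DESeq2, 3 with no filter and 1 from the compared libraries alone among F/F hearts, and 1 with no filter among F/+ hearts. The difference between the effects without and with cGas gave 0 calls in each fit. The cause of these shifts was not tested.

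Library totals with no scaling factor moved the median log2 fold change of all genes at 2 weeks to 0.29 and that of the cross to 0.16 without cGas and 0.15 with it, and the 8 genes called at 2 weeks kept their calls and direction there. Of 90 log2 fold changes, 22 changed sign in some fit, and none was called in a fit where it did. Apart from fits that left out a library, these were Irf3 at 2 weeks (0.014 with no scaling factor, 0.043 on TPM) and without cGas (0.15 with no scaling factor). Trex1 became -0.0057 at 1 week with no covariates. Without cGas, Trex1 became 0.0067 with no filter, 0.0079 with mitochondrial genes left out, 0.22 with no scaling factor and 0.13 from the compared libraries alone, where Aim2 became -0.028. Sting1 at 11 days became 0.00088 from the compared libraries alone. With no covariates the difference between the effects became -0.060 for Tbk1 and -0.080 for Samhd1. Trex1 in cGas null against cGas +/+ among F/+ hearts became 0.051 with no covariates and 0.17 from the compared libraries alone. With 1 library left out, the values that changed sign ranged, at 1 week, Ikbke -0.031 to 0.42, Trex1 -0.060 to 0.081 and Samhd1 -0.053 to 0.050. At 11 days the ranges were Sting1 -0.36 to 0.080, Tbk1 -1.01 to 0.11, Zbp1 -0.96 to 0.34 and Aim2 -0.42 to 0.59. For F/F against F/+ without cGas the ranges were Irf3 -0.13 to 0.13 and Trex1 -0.11 to 0.21. For the difference between the effects without and with cGas the ranges were Cgas -0.42 to 0.12, Sting1 -0.19 to 0.10, Tbk1 -0.080 to 0.15, Irf3 -0.20 to 0.066, Zbp1 -0.71 to 0.19, Ifi204 -0.62 to 0.074 and Samhd1 -0.17 to 0.12. For cGas null against cGas +/+ among F/F hearts the ranges were Ikbke -0.39 to 0.19 and Irf3 -0.12 to 0.037. Among F/+ hearts the ranges were Irf3 -0.10 to 0.14 and Trex1 -0.23 to 0.071.

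Cgas, Aim2 and Ikbke rest on few reads. The 11-day comparison has 2 against 3 libraries, and the arms without cGas have 4 against 4.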

Other observations

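Ifnb1 reads were seen in F/F libraries alone: 1 read in the 2 labelled F/F libraries of 11 days, 6 in the 5 F/F libraries of 2 weeks and 2 in the 6 F/F cGas +/+ libraries, against 0 in each of the other 7 groups. So few reads allow no test.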
